A study of Homo sapiens with 12 samples.

Results

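The mRNA levels of 10 genes that make, carry, degrade or sense prostaglandins were compared in HK-2 cells, an immortalized line of human renal proximal tubular epithelial cells, after exposure to 3 nephrotoxic drugs. The genes were picked by symbol among the 58735 genes counted: PTGS1, PTGS2, PTGES, PTGES2, PTGES3, PTGIS, HPGD, SLCO2A1, PTGER2 and PTGER4. Poly(A) RNA of 12 samples was sequenced, 3 in each of 4 groups. The control group received H2O, and the other groups received iohexol at 75 mg I/mL, an iodinated contrast agent, cisplatin at 5 μM, a platinum anticancer drug, or vancomycin at 4 mM, a glycopeptide antibiotic. Treatment lasted 48 h, and all groups were the same line grown in the same serum-containing medium. Nothing in the labels says that the 3 samples of a group came from separate cultures, so the p-values measure the spread between these samples, which may be technical. A single dose and time were used per drug, in one cultured line without the other cell types of the kidney, and in bulk RNA fewer cells of a kind and less RNA per cell cannot be told apart.

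Prostaglandins are lipid messengers made from arachidonic acid, which phospholipases free from membranes. The cyclooxygenases PTGS1 and PTGS2 turn it into prostaglandin H2, and terminal synthases turn that into the active prostanoids, such as PGE2 through the PTGES enzymes and prostacyclin through PTGIS. The signal ends when the carrier SLCO2A1 takes prostaglandins into the cell and the dehydrogenase HPGD oxidizes them, while PGE2 outside the cell acts on G protein-coupled receptors, of which PTGER2 and PTGER4 raise cyclic AMP. In the kidney, prostanoids are known for their part in blood flow and in salt and water handling.

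Vancomycin and cisplatin raised the PGE2 synthase gene PTGES and lowered both genes of prostaglandin clearance, SLCO2A1 and HPGD. Iohexol lowered SLCO2A1 about as far as the log2 threshold of 1, raised HPGD by less than that threshold, and PTGES did not pass the test. Of the PGE2 receptor genes, PTGER4 rose with cisplatin and PTGER2 rose with vancomycin, both by less than the threshold and PTGER4 just under it. PTGER4 fell with iohexol by less than the threshold, a value that did not pass the test with scaling by library size or with DESeq2. PTGER2 fell with cisplatin and iohexol by less than the threshold, and the cisplatin value did not pass the test with scaling by library size. No change of the inducible cyclooxygenase gene PTGS2 passed the test with any drug, at 3 to 26 counts per sample.

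Promoter sequences are shown for the 3 genes with the largest changes against control among the 8 that matched the RefSeq promoter table on GRCh38.p14. PTGIS and SLCO2A1 are named only. Each window runs 5′ to 3′ on the strand of the gene, from 250 bases before to 50 bases after a transcript start. Capitals mark GGGCGG or its reverse complement CCGCCC (GC box), CCAAT and CACGTG (E box).
PTGES, chr9:129752993-129753292, minus strand: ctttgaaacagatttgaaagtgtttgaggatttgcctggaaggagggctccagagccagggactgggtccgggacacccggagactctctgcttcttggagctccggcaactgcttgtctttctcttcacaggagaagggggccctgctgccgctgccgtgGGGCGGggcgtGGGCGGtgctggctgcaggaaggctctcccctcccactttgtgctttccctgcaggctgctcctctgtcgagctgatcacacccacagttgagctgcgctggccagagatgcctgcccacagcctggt
HPGD, chr4:174522439-174522738, minus strand: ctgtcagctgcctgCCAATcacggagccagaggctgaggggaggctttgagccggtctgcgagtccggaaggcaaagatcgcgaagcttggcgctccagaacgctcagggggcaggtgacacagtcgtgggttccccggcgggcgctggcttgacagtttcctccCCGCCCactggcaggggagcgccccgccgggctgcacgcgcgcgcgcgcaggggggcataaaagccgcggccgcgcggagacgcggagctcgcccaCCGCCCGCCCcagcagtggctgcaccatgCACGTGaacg
PTGER4, chr5:40679665-40679964, plus strand: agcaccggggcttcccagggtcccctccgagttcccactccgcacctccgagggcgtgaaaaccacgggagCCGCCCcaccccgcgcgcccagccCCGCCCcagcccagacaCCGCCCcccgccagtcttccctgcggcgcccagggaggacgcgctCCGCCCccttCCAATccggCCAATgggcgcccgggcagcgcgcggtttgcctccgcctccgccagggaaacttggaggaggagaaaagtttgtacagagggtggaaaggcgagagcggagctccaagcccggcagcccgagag
The PTGES window held 2 GC boxes and none of the other motifs searched. The HPGD window, at the one of its RefSeq starts that lies further downstream, held 3 GC boxes, of which 2 overlap, with 1 CCAAT and 1 E box. The PTGER4 window held 4 GC boxes and 2 CCAAT. Of all 35116 promoter windows of this length, 45.0% held a GC box, 34.6% a CCAAT and 7.26% an E box on either strand. The other motifs searched on both strands were TATAAA (in 11.5% of windows), TGACG (24.6%), TGANTCA (7.71%) and TGACNNNGC (13.3%), and none of these letters occurred in the 3 windows shown. A match describes the letters of a window and is not a binding site.

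Total counts were between 14057282 and 18177109 per sample, so that 3 counts corresponded to 0.177 to 0.218 CPM, the count scaled to a common library size after TMM. These limits cover counting error only. TMM factors, which scale for RNA composition, lay between 0.961 and 0.976 for controls, reached 1.13 with cisplatin and were as low as 0.885 with vancomycin. Scaling by library size alone moved the log2 fold changes of all genes with cisplatin by a median of 0.22, and those with vancomycin by -0.076. Of the 20 tubular epithelial markers checked, 14 to 16 had at least 3 counts in every sample of a group, whereas SLC22A6, the organic anion transporter of the mature proximal tubule, had 0 counts in every sample. Summed leukocyte markers (8 genes) ranged from 8.90 to 19.7 CPM and summed endothelial markers (6 genes) from 0 to 4.63 CPM over all samples.

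In the control group, levels were compared between genes per kilobase of the deposited gene length. PTGES3 had the highest level, at 141 ± 13.6 CPM per kb (SD, n = 3). PTGES followed at 33.5 ± 1.17 CPM per kb, then SLCO2A1 at 27.5 ± 1.82 and PTGES2 at 26.1 ± 3.18 CPM per kb, and the samples of these last 2 genes overlapped. Below them, PTGER2 was at 11.6 ± 0.175, HPGD at 9.52 ± 0.286, PTGS1 at 3.24 ± 0.358 and PTGER4 at 1.40 ± 0.0849 CPM per kb, with no overlap between neighbours. PTGS2 (0.134 ± 0.0984 CPM per kb) and PTGIS (0.0346 ± 0.0308 CPM per kb) were lowest, and their samples overlapped. With vancomycin the order differed: PTGES was highest at 160.6 CPM per kb, above PTGES3 at 128 CPM per kb, and SLCO2A1 stood at 2.72 CPM per kb, below HPGD at 3.24 CPM per kb.

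**Figure D1:**
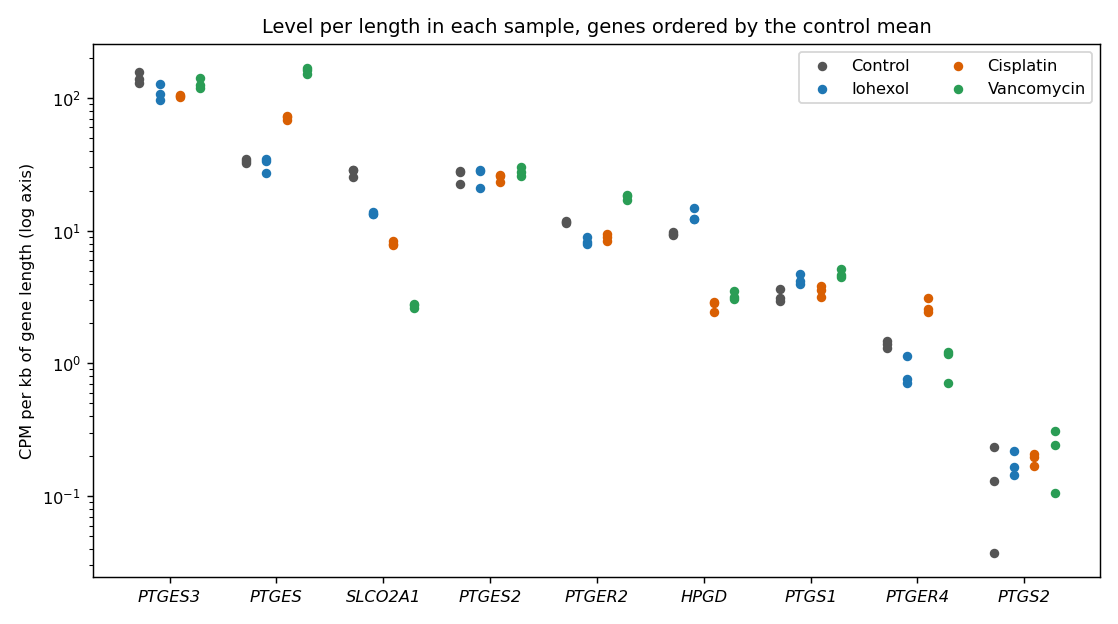
Level of 9 of the 10 genes in CPM per kb of gene length (log axis), ordered by the control mean, where each point is 1 sample and colours are the 4 groups; PTGIS, with samples at 0, is left out. SLCO2A1 spans the widest range of the genes drawn, from 27.5 CPM per kb in the control group to 2.72 with vancomycin, while PTGES3 and PTGES2 stay close together over the groups.

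PTGS1 (ENSG00000095303, chr9:122370530-122395703, plus strand) encodes the constitutive cyclooxygenase. Its level was 17.1, 18.1 and 21.1 CPM in the control samples, 22.8, 27.1 and 24.2 with iohexol, 20.5, 22.2 and 18.5 with cisplatin, and 30.0, 25.8 and 26.7 with vancomycin. The iohexol and vancomycin samples were all above the controls, and the cisplatin samples overlapped them. The log2 fold change was 0.41 ± 0.13 (SE) with iohexol (edgeR adjusted p = 0.0391) and 0.51 ± 0.12 with vancomycin (edgeR adjusted p = 0.00101). With cisplatin it was 0.12 ± 0.11, and edgeR's adjusted p was 0.384 (0.33 and 0.0168 with scaling by library size).

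PTGS2 (ENSG00000073756, chr1:186671791-186680427, minus strand), the inducible cyclooxygenase gene, was close to the detection limit. It had 17, 11 and 3 counts in the control samples, 11, 18 and 13 with iohexol, 18, 17 and 15 with cisplatin, and 26, 19 and 9 with vancomycin. All groups overlapped the control group. The log2 fold changes were 0.43 with iohexol, 0.53 with cisplatin and 0.68 with vancomycin, and their edgeR adjusted p-values were 0.607, 0.351 and 0.269. The 95% interval ran from -0.38 to 1.74 with vancomycin and from -0.71 to 1.57 with iohexol, so a change past the log2 threshold of 1 was not excluded. Per length, PTGS1 made up 95.9% ± 3.16 of the summed level of both cyclooxygenase genes in the control group, 96.1% ± 0.477 with iohexol, 94.9% ± 0.321 with cisplatin and 95.7% ± 1.85 with vancomycin.

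PTGES (ENSG00000148344, chr9:129738331-129753047, minus strand) encodes the inducible microsomal PGE2 synthase, and its promoter window is the first one printed. Its level was 61.5, 65.9 and 63.3 CPM in the control samples and 66.3, 64.0 and 51.9 CPM with iohexol. It was 129, 136 and 138 CPM with cisplatin, and 288, 318 and 307 CPM with vancomycin. The cisplatin samples lay above all control and iohexol samples, the vancomycin samples lay above the cisplatin samples, and iohexol overlapped the control group. PTGES rose 2.12-fold with cisplatin (log2 fold change 1.08 ± 0.07, edgeR adjusted p = 2.09e-10) and 4.65-fold with vancomycin (2.22 ± 0.09, edgeR adjusted p = 8.61e-16). With iohexol the log2 fold change was -0.05 ± 0.11, with a 95% interval of -0.29 to 0.19 and an edgeR adjusted p of 0.802. Scaling by library size alone gave 0.02 for this value.

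The other PGE2 synthase genes differed less between groups. PTGES2 (ENSG00000148334, chr9:128120693-128128462, minus strand) encodes a membrane-associated PGE2 synthase, and averaged 79.4 ± 9.67 CPM in the control group, 79.1 ± 13.2 with iohexol, 76.5 ± 4.62 with cisplatin and 85.1 ± 6.78 with vancomycin. Its samples overlapped the controls in every group, and edgeR's adjusted p was 0.95, 0.583 and 0.637. PTGES3 (ENSG00000110958, chr12:56663341-56688408, minus strand), the cytosolic PGE2 synthase gene whose product is also the HSP90 co-chaperone p23, had 530.3, 472 and 439 CPM in the control samples. It had 362, 327 and 431 CPM with iohexol, 354, 344 and 359 with cisplatin, and 425, 479 and 403 with vancomycin. The iohexol and cisplatin samples were all below the controls, and vancomycin overlapped them. PTGES3 fell by 0.45 ± 0.07 on the log2 scale with cisplatin (edgeR adjusted p = 1.68e-05) and by 0.35 ± 0.11 with iohexol (edgeR adjusted p = 0.0409). With vancomycin its log2 fold change was -0.18 ± 0.09 (edgeR adjusted p = 0.0898), and with scaling by library size -0.26 (edgeR adjusted p = 0.0169). Of the 31-base sequences of PTGES3, 18.6% occur in another gene, the most in its pseudogene PTGES3P1, which received 847 counts against 76229 for PTGES3 over the 12 samples.

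Per length, PTGES made up 16.7% ± 1.18 of the summed level of the 3 PGE2 synthase genes in the control group. Its part was 19.2% ± 3.08 with iohexol, 35.5% ± 0.644 with cisplatin and 50.7% ± 1.26 with vancomycin, so that in the vancomycin group PTGES matched the sum of the other two. These ratios were chosen with the levels known and are a description.

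PTGIS (ENSG00000124212, chr20:49503874-49568146, minus strand), the prostacyclin synthase gene, was at or near 0 outside the vancomycin group. It had 0, 4 and 5 counts in the control samples, 1, 0 and 4 with iohexol, 0 in each cisplatin sample, and 13, 32 and 50 with vancomycin. All vancomycin samples were above all others, with 2.02 ± 1.14 CPM (SD, n = 3), and they differed among themselves from 0.813 to 3.08 CPM. The fit of vancomycin with control gave a log2 fold change of 3.25 ± 0.60 (edgeR adjusted p = 6.83e-05), but PTGIS passed the filter on low counts there only through the vancomycin samples, and it was not tested with the other drugs. Against the highest level that 3 counts per library allow in the cisplatin samples (0.185 CPM), the vancomycin mean was at least 10.9-fold higher. The summed level of fibroblast markers (6 genes) was 115 to 129 CPM in the control samples and 241 to 277 CPM with vancomycin. It was 106 to 116 CPM with iohexol and 105 to 109 CPM with cisplatin. With vancomycin the 4 of them that were tested were higher, by log2 values of 1.14 for LUM, 1.27 for DCN, 0.41 for COL1A1 and 1.12 for PDGFRB (edgeR adjusted p at most 0.0241). PDGFRB passed the filter there only through the vancomycin samples. With cisplatin, where PTGIS had 0 counts, COL1A1 (48.7 CPM) and PDGFRB (1.35 CPM) were also above the control group (30.6 and 0.607 CPM). LUM (54.6 CPM) and DCN (2.70 CPM) were below it there (79.8 and 12.3 CPM). The other 2 fibroblast markers were at or near 0, with COL3A1 at 0.156 CPM in the control group and 0.0642 CPM with vancomycin and PDGFRA at 0 counts in all samples of both groups. LUM made up the largest part of the sum, at 79.8 CPM in the control group and 182 CPM with vancomycin. The endothelial marker PECAM1 was at 1.33 CPM in the control group and 0.0831 CPM with vancomycin. All samples were of 1 cultured line, and the relation of these markers to the PTGIS counts was not tested.

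HPGD (ENSG00000164120, chr4:174490177-174523154, minus strand) encodes 15-hydroxyprostaglandin dehydrogenase, which starts the breakdown of prostaglandins, and its promoter window is the second printed. Its level was 54.4, 51.4 and 52.2 CPM in the control samples and 67.8, 67.9 and 81.8 CPM with iohexol. It was 15.9, 13.5 and 15.7 CPM with cisplatin, and 17.5, 19.3 and 17.0 CPM with vancomycin. After TMM the 4 groups did not overlap, in the order iohexol, control, vancomycin, cisplatin. The order of vancomycin and cisplatin depended on the scaling. Cisplatin minus vancomycin was -0.25 on the log2 scale with TMM (edgeR adjusted p = 0.0538) and 0.08 with scaling by library size. HPGD fell 3.5-fold with cisplatin (log2 fold change -1.81 ± 0.09, edgeR adjusted p = 2.6e-11) and 3.03-fold with vancomycin (-1.60 ± 0.11, edgeR adjusted p = 1.15e-11). It rose by 0.48 ± 0.10 on the log2 scale with iohexol, which is 1.39-fold (edgeR adjusted p = 0.00594).

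SLCO2A1 (ENSG00000174640, chr3:133928145-134052184, minus strand) encodes the prostaglandin transporter, the carrier for uptake. Its level was 250.2, 280.2 and 282 CPM in the control samples and 132, 131 and 136 CPM with iohexol. It was 78.3, 76.6 and 81.9 CPM with cisplatin, and 27.0, 25.7 and 27.5 CPM with vancomycin. The 4 groups did not overlap, with the control group highest and vancomycin lowest. SLCO2A1 was the one member that fell past the log2 threshold of 1 with all 3 drugs, and these comparisons share their control samples. It fell 10.4-fold with vancomycin (log2 fold change -3.38 ± 0.10, edgeR adjusted p = 3.88e-18), 3.43-fold with cisplatin (-1.78 ± 0.07, edgeR adjusted p = 4.29e-13) and 2.01-fold with iohexol (-1.01 ± 0.08, 95% interval -1.19 to -0.82, edgeR adjusted p = 6.53e-06). With iohexol, 3 of 13 tubular epithelial markers tested were DEGs, all higher, beside 5.28% of all genes (4.02% up). They were PAX2, ANPEP and CUBN, and CUBN passed the filter there only through the iohexol samples. By adjusted p under 0.05, 5 markers rose and 2 fell with iohexol, beside 21.0% of all genes. With cisplatin, tubular epithelial markers moved as well: 7 of the 12 tested were DEGs, all lower, beside 16.3% of all genes (8.72% down). Among them were PAX8 (372 to 131 CPM) and HAVCR1 (190 to 70.2 CPM), while KRT8, KRT18 and KRT19 rose. PAX2 and ANPEP, also among the 7, passed the filter only through the control samples, so their calls carry no weight. With vancomycin 3 of 14 were DEGs, 1 higher and 2 lower, beside 18.5% of all genes, so this number is near the share of all genes. Among the 3, AQP1 passed the filter only through the vancomycin samples and PAX2 only through the control samples. HAVCR1 passed it in both groups and fell from 190 to 84.6 CPM. The summed level of the 20 markers was 1799 to 1961 CPM in the control samples, 1773 to 1822 with cisplatin and 2354 to 2409 with vancomycin, and their part in the changes of HPGD and SLCO2A1 was not tested. The iohexol value of SLCO2A1 lies on the threshold and was -0.94 with scaling by library size, -0.996 without Control replicate 2 and -0.994 without Control replicate 3.

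**Figure D2:**
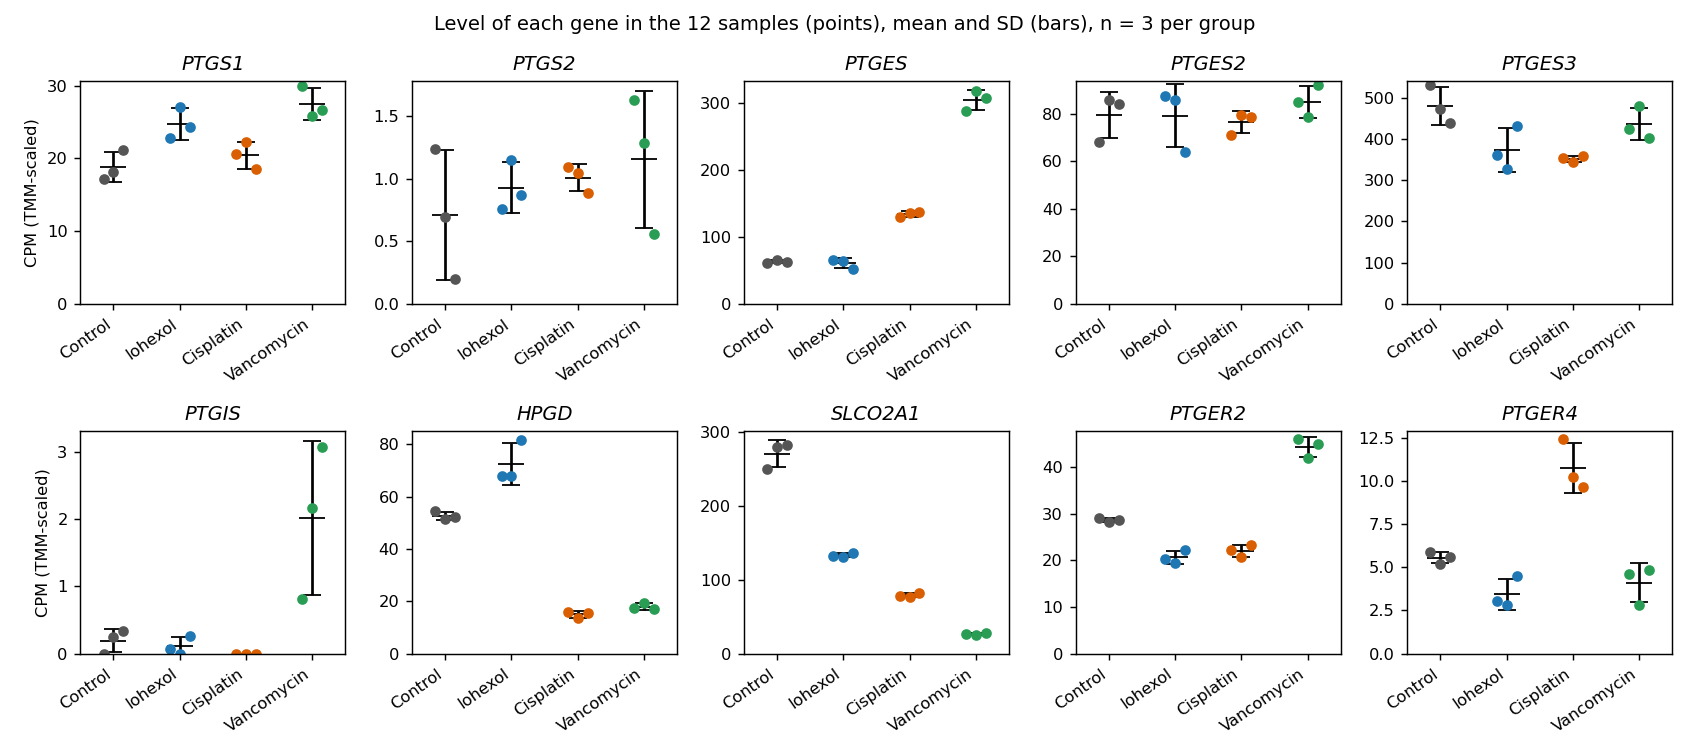
Level of each of the 10 genes in CPM (linear axes from 0, 1 panel per gene), by group; points are samples and bars the mean and SD of 3. SLCO2A1 steps down from 270.8 CPM in the control group to 26.7 with vancomycin, PTGES steps up from 63.6 to 304.6 CPM, and the groups of PTGS2 and PTGES2 overlap.

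PTGER2 (ENSG00000125384, chr14:52314305-52328606, plus strand) encodes the PGE2 receptor EP2. Its level was 29.1, 28.2 and 28.7 CPM in the control samples and 20.4, 19.5 and 22.2 CPM with iohexol. It was 22.2, 20.7 and 23.3 CPM with cisplatin, and 46.1, 41.9 and 44.9 CPM with vancomycin. The vancomycin samples were above the controls, and the iohexol and cisplatin samples were below them and overlapped each other. PTGER2 rose 1.5-fold with vancomycin (log2 fold change 0.59 ± 0.11, edgeR adjusted p = 4.4e-05). It fell by 0.45 ± 0.11 on the log2 scale with iohexol (edgeR adjusted p = 0.0129) and by 0.38 ± 0.09 with cisplatin (edgeR adjusted p = 0.00214). With scaling by library size the cisplatin value was -0.16 (edgeR adjusted p = 0.146).

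PTGER4 (ENSG00000171522, chr5:40679498-40693735, plus strand) encodes the receptor EP4, and its promoter window is the third printed. It had 81, 83 and 85 counts in the control samples, 44, 44 and 67 with iohexol, 205, 166 and 163 with cisplatin, and 74, 42 and 79 with vancomycin. The corresponding means were 5.56 ± 0.336, 3.44 ± 0.901, 10.8 ± 1.47 and 4.11 ± 1.11 CPM (SD, n = 3). The cisplatin samples were above all others, and the iohexol and vancomycin samples were below the controls and overlapped each other. PTGER4 rose 1.93-fold with cisplatin (log2 fold change 0.95 ± 0.15, edgeR adjusted p = 3.11e-05), just under the log2 threshold of 1, and it passed that threshold at 1.17 with scaling by library size and at 1.03 without Cisplatin replicate 3. It fell by 0.67 ± 0.21 on the log2 scale with iohexol (edgeR adjusted p = 0.0441). This fall of PTGER4 did not pass with scaling by library size (edgeR adjusted p = 0.0685) or with DESeq2 (DESeq2 adjusted p = 0.0505). With vancomycin its log2 fold change was -0.47 ± 0.22, with an edgeR adjusted p of 0.0739, and with scaling by library size it was -0.55 (edgeR adjusted p = 0.0392).

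Differentially expressed genes (DEGs) were those past 1 on the log2 scale in either direction with an adjusted p under 0.05. In the comparison of iohexol with the control group, 6 of the 9 members tested had an adjusted p under 0.05, beside 21.0% of all 15657 genes tested. Of these, 2 were up, beside 11.2% of all genes, and 4 down, beside 9.77%. SLCO2A1 was the 1 DEG, beside 5.28% of all genes (4.02% up, 1.25% down). The number with an adjusted p under 0.05 fell to 2 without Control replicate 2 or without Iohexol replicate 2, and to 3 without Control replicate 1 or without Iohexol replicate 1. PTGS1 missed the threshold without a filter (edgeR adjusted p = 0.0699), and PTGES3 and PTGER4 with scaling by library size (edgeR adjusted p = 0.0902 and 0.0685). In the comparison of cisplatin with control, 6 of 9 passed the adjusted p, beside 59.8% of all genes, which is close to the members' share, with 2 up beside 29.2% and 4 down beside 30.6%. There 3 were DEGs, beside 16.3%, with PTGES up (7.62% of all genes) and HPGD and SLCO2A1 down (8.72%). In the comparison of vancomycin with control, 6 of 10 passed, beside 57.9%, which is close to the members' share, with 4 up beside 29.0% and 2 down beside 28.8%. There 4 were DEGs, beside 18.5%, with PTGES and PTGIS up (10.8% of all genes) and HPGD and SLCO2A1 down (7.65%). PTGIS entered this fit only through the samples in which it was high, so its call carries no weight in these counts. The members' median log2 fold change was -0.05, -0.06 and 0.28 with iohexol, cisplatin and vancomycin, and that of all genes was 0.01, 0.01 and -0.01.

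**Figure D3:**
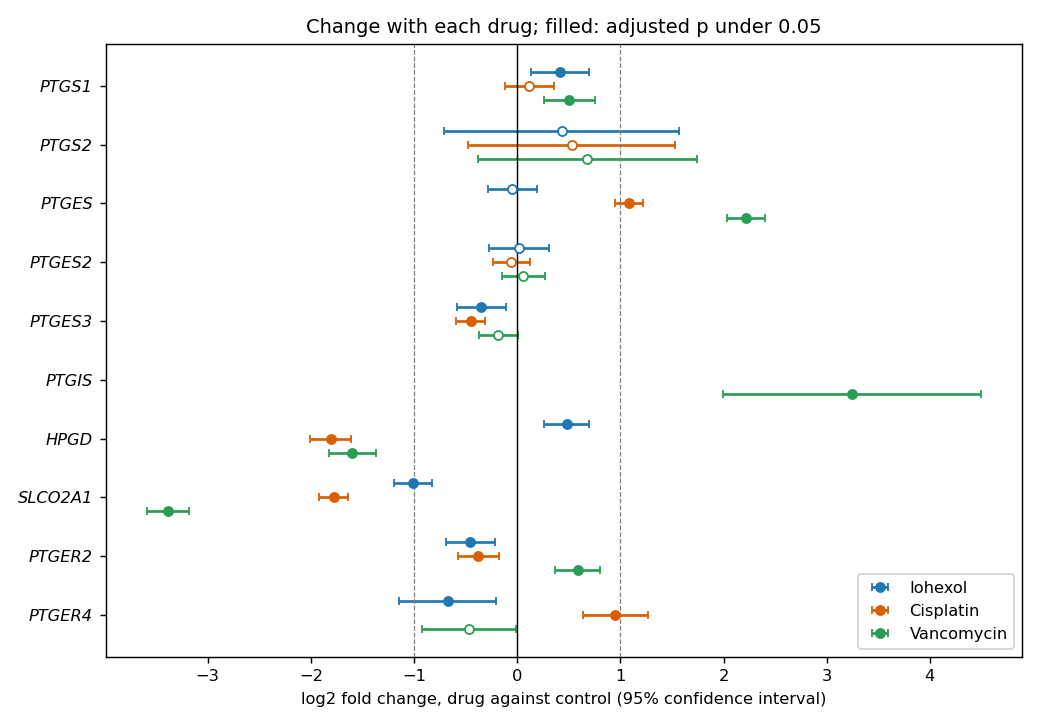
Log2 fold change of each member against the control group for the 3 drugs (points), with the 95% interval of edgeR's test (bars), lines at 1 and -1 and filled points where the adjusted p was under 0.05; PTGIS was tested with vancomycin alone. SLCO2A1 lies at -1.01, -1.78 and -3.38 with iohexol, cisplatin and vancomycin, and the intervals of PTGS2 and PTGES2 span 0 with each drug.

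The drugs were also compared with each other by contrasts in one fit of all 12 samples. Between cisplatin and vancomycin, 5 of the 10 members tested were DEGs, beside 28.5% of all genes, and 7 had an adjusted p under 0.05, beside 64.7%. PTGES was 2.26-fold lower with cisplatin than with vancomycin (edgeR adjusted p = 3.23e-10), SLCO2A1 was 2.96-fold higher (edgeR adjusted p = 1.94e-12) and PTGER4 was 2.60-fold higher (edgeR adjusted p = 5.8e-06). PTGER2 differed by -1.004 ± 0.10 on the log2 scale (edgeR adjusted p = 1.68e-08), a value on the threshold that was -0.67 with scaling by library size. The fifth, PTGIS, had 0 counts in every cisplatin sample and was in the fit only through its vancomycin samples, so its call carries no weight. PTGS1 (-0.43, edgeR adjusted p = 0.00299) and PTGES3 (-0.31, edgeR adjusted p = 0.00864) passed the adjusted p without reaching the log2 threshold. Under the alternatives PTGS1 lay between -0.49 and -0.09, and PTGES3 was 0.029 with scaling by library size. HPGD, which fell with both drugs, differed between them by -0.25 ± 0.11 on the log2 scale (95% interval -0.48 to -0.02, edgeR adjusted p = 0.0538), and scaling by library size gave 0.08.

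Between iohexol and cisplatin, 3 of the 10 members tested were DEGs, beside 17.5% of all genes, and 4 had an adjusted p under 0.05, beside 54.0%. HPGD was 4.81-fold higher with iohexol (edgeR adjusted p = 9.34e-13), PTGES was 2.22-fold lower (edgeR adjusted p = 1.29e-09) and PTGER4 was 3.12-fold lower (edgeR adjusted p = 1.44e-06). SLCO2A1 was 1.69-fold higher (edgeR adjusted p = 6.24e-08). PTGER2, which fell with both drugs, differed by -0.09 ± 0.10 on the log2 scale (95% interval -0.30 to 0.11, edgeR adjusted p = 0.443).

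Between iohexol and vancomycin, 5 of the 10 members tested were DEGs, beside 20.1% of all genes, and the same number had an adjusted p under 0.05, beside 56.6%. PTGES was 5.01-fold lower with iohexol than with vancomycin (edgeR adjusted p = 5.59e-14), SLCO2A1 was 4.98-fold higher (edgeR adjusted p = 1.36e-14), HPGD was 4.05-fold higher (edgeR adjusted p = 3.46e-12) and PTGER2 was 2.14-fold lower (edgeR adjusted p = 8.48e-09). PTGIS was lower with iohexol as well, at 0 to 4 counts against 13 to 50 counts, and is in both numbers only through its vancomycin samples.

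Ratios between members were formed per length within each sample and are a description, since they were chosen with the levels known. The ratio of PTGES, which makes PGE2, to HPGD, which degrades it, was 3.29, 3.74 and 3.54 in the control samples and 2.85, 2.75 and 1.85 with iohexol. It was 23.7, 29.4 and 25.7 with cisplatin, and 48.1, 48.1 and 52.7 with vancomycin. The 4 groups did not overlap in this ratio. The ratio of PTGER2 to PTGER4 averaged 8.28 ± 0.381 in the control group, 9.93 ± 1.73 with iohexol, 3.33 ± 0.515 with cisplatin and 18.1 ± 4.84 with vancomycin (SD, n = 3). The cisplatin samples lay below all others and the vancomycin samples above all others. The ratio of the carrier SLCO2A1 to HPGD averaged 2.90 ± 0.271 in the control group and 2.96 ± 0.211 with cisplatin, and their samples overlapped. It was 1.04 ± 0.0877 with iohexol and 0.841 ± 0.0841 with vancomycin.

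**Figure D4:**
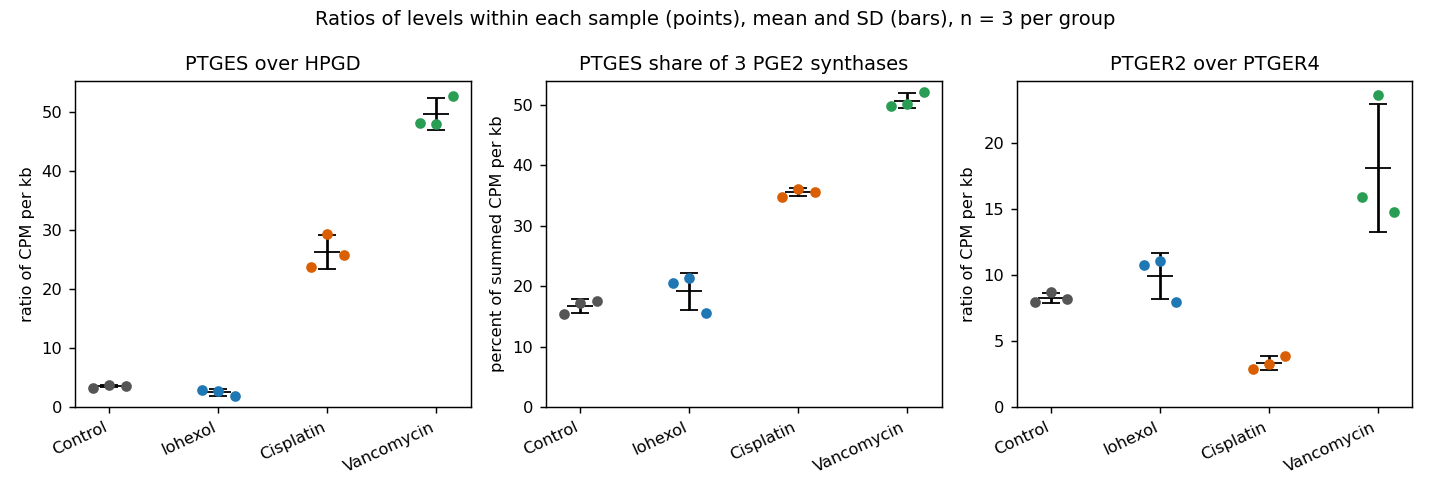
Ratios and shares of members per length in each sample (points), with the mean and SD of each group (bars), for PTGES over HPGD, PTGES among the PGE2 synthases and PTGER2 over PTGER4. PTGES over HPGD goes from 3.52 in the control group to 26.3 with cisplatin and 49.6 with vancomycin, and PTGER2 over PTGER4 is lowest with cisplatin at 3.33 and highest with vancomycin at 18.1.

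The other genes of the pathway were counted in 3 lists, of arachidonate release and return, of other prostanoid synthases and reductases, and of other receptors and export, with 38 genes of which 29 were tested with each drug. With iohexol, 5 had an adjusted p under 0.05 and rose and 3 fell, beside 21.0% of all genes in either direction, and 3 were DEGs, beside 5.28%. With cisplatin, 7 rose and 11 fell, beside 59.8%, and 6 were DEGs, beside 16.3%, so these numbers are near the share of all genes. With vancomycin 17 rose and 7 fell, beside 57.9%, and 8 were DEGs, beside 18.5%. The DEGs include PTGER3 and PTGDS with cisplatin and FAAH with vancomycin, which passed the filter only through the group in which they were higher. Their median log2 fold change was 0.29, -0.08 and 0.33, beside 0.01, 0.01 and -0.01 over all genes.

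Among the genes of arachidonate release and return, 2 of 14 tested rose with iohexol and 0 fell, 3 of 13 rose and 2 fell with cisplatin, and 8 of 14 rose and 4 fell with vancomycin. The shares of all genes that passed were 21.0%, 59.8% and 57.9%, and the cisplatin count is below its share. The DEGs with vancomycin were phospholipases and FAAH, which hydrolyses fatty acid amides. PLA2G4A, the cytosolic phospholipase that frees arachidonic acid, rose from 1.64 ± 0.400 to 5.19 ± 0.824 CPM (log2 fold change 1.62 ± 0.26, edgeR adjusted p = 1.16e-05). Its relative PLA2G4C rose from 2.87 ± 0.625 to 10.3 ± 1.93 CPM (1.79 ± 0.21), and to 7.73 ± 1.14 CPM with iohexol (1.44 ± 0.21). The calcium-independent PLA2G6 rose from 2.94 ± 1.06 to 8.88 ± 1.78 CPM with vancomycin, and PLA2G16 from 37.9 ± 1.59 to 94.3 ± 5.71 CPM. FAAH was at 0.728 ± 0.247 CPM in the control group and 2.59 ± 0.728 CPM with vancomycin. ANXA1, annexin A1, known as an inhibitor of phospholipase A2, rose with cisplatin from 48.7 ± 3.05 to 107 ± 3.23 CPM (1.13 ± 0.07) and with vancomycin to 96.1 ± 7.43 CPM (0.94 ± 0.10). Of the 31-base sequences of PLA2G6, 22.6% occur in other genes.

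Among the other synthases and reductases, 3 of 9 tested rose and 1 fell with iohexol, 2 rose and 5 fell with cisplatin, and 6 rose and 0 fell with vancomycin. Beside these stand 21.0%, 59.8% and 57.9% of all genes in either direction, and the vancomycin total is near its share. AKR1C3, a reductase of prostaglandins and steroids, rose from 3.51 ± 0.103 to 46.7 ± 5.09 CPM with vancomycin (log2 fold change 3.68 ± 0.14, edgeR adjusted p = 3.66e-16) and fell to 1.32 ± 0.505 CPM with cisplatin (-1.40 ± 0.28, edgeR adjusted p = 0.000336). PTGDS, a prostaglandin D2 synthase gene, followed the same order, with 1.77 ± 0.760 CPM in the control group, 12.5 ± 2.80 with vancomycin (2.75 ± 0.24) and 0.704 ± 0.344 with cisplatin. The cisplatin samples of PTGDS overlapped the controls, and the value there, -1.33 ± 0.42, did not pass the test without Control replicate 3 (-1.06) or without Cisplatin replicate 2 (-1.08). AKR1B1, aldose reductase, which can also make prostaglandin F2α, rose from 1215 ± 44.5 to 6148 ± 373 CPM with iohexol (2.36 ± 0.08, edgeR adjusted p = 6.99e-09). AKR1C3 shares 13.4% of its 31-base sequences with other genes, the most with AKR1C1, AKR1B1 shares 15.7% and PTGDS 32.9%.

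Among the other receptors and export genes, 0 of 6 tested rose and 2 fell with iohexol, 2 of 7 rose and 4 fell with cisplatin, and 3 of 6 rose and 3 fell with vancomycin. Beside these stand 21.0%, 59.8% and 57.9% of all genes in either direction. ABCC4, an efflux pump that exports prostaglandins, fell from 89.5 ± 7.74 to 33.6 ± 1.32 CPM with cisplatin (log2 fold change -1.41 ± 0.08) and to 43.6 ± 4.34 CPM with vancomycin (-1.08 ± 0.10). With iohexol it was at 92.9 ± 10.6 CPM. PTGFR, the receptor for prostaglandin F2α, fell from 12.8 ± 0.568 to 3.67 ± 0.470 CPM with iohexol (-1.78 ± 0.16, edgeR adjusted p = 1.34e-05). PTGFRN, a regulator of that receptor, fell from 147 ± 9.78 to 56.9 ± 0.989 CPM with cisplatin (-1.37 ± 0.07). PTGER3, the receptor EP3, was at 0.415 ± 0.172 CPM in the control group (3 to 8 counts) and 0.988 ± 0.158 CPM with cisplatin (15 to 19 counts). It passed the filter only through the cisplatin samples, so its call carries no weight.

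**Figure D5:**
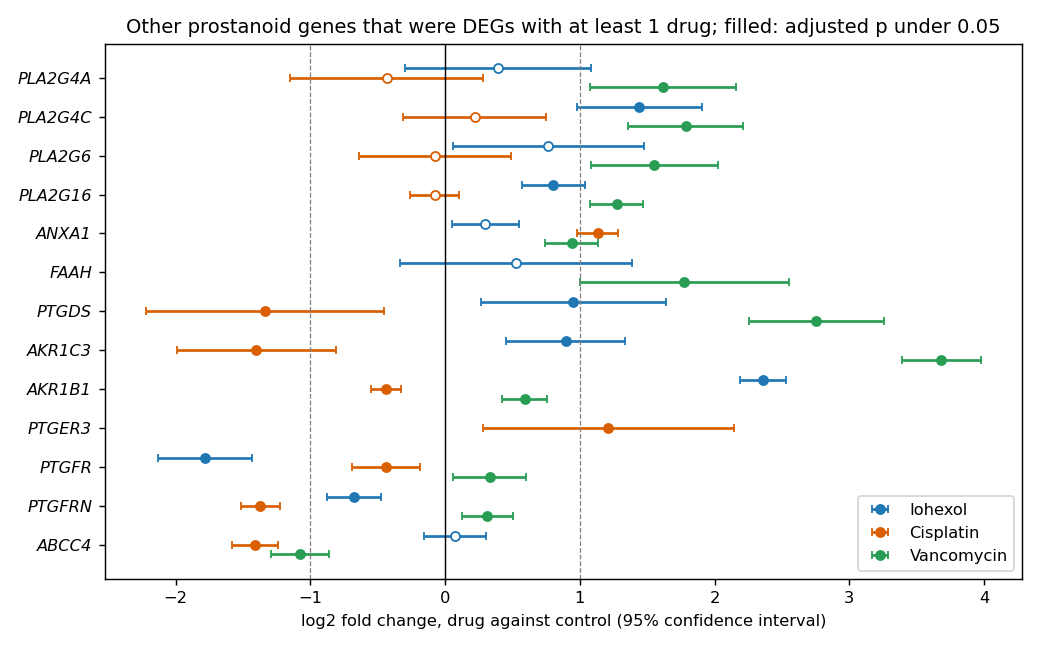
Log2 fold change against the control group for the other prostanoid pathway genes that were DEGs with at least 1 drug, with the 95% interval of edgeR's test (bars), lines at 1 and -1 and filled points where the adjusted p was under 0.05. AKR1C3 lies at 3.68 with vancomycin and -1.40 with cisplatin, AKR1B1 at 2.36 with iohexol, and ABCC4 at -1.41 with cisplatin and -1.08 with vancomycin.

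The genes whose log2 CPM followed the 3 members with the widest range of group means most closely were named by Pearson's r over the 12 samples, among 17072 other genes. The samples fall into 4 groups and share libraries and scaling, so r is a description. For SLCO2A1 these were TGFA (r = 0.991), CADM1 (0.989) and ADGRL2 (0.989). For PTGES they were RAB32 (0.991) and EIF1 (0.991). For PTGIS, with 0 to 5 counts in 9 of the samples, they were PNPLA4 (0.958), ACOT13 (0.945) and PAK1 (0.940). By Spearman's rank correlation none of these was first, and PNPLA4, ACOT13 and PAK1 came at ranks 522, 134 and 591.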

How the data were processed

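RNA of 12 HK-2 samples was prepared with poly(A) selection and the NEBNext Ultra kit. The authors deposited one table of raw counts, whole reads per gene without normalization, for 58735 genes. The submitters' processing notes name CASAVA 1.8, fastp, HISAT2 2.0.5, featureCounts 1.5.0-p3 and DESeq2 1.20.0. The strand setting is not given in the sources used here. All gene positions in the table equal those of GENCODE 29 on GRCh38.

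Groups and replicate numbers came from the sample labels. Genes were tested with edgeR 4.0.16 in R 4.3.3 (TMM, quasi-likelihood test), each drug with the control group in a fit of its own, and drugs with each other in a fit of all 12 samples. Low genes were removed with filterByExpr (minimum count 10, minimum total 15), and the Benjamini-Hochberg adjustment ran over all remaining genes. The SE is the log2 fold change divided by the square root of F. CPM values use the total times the TMM factor, and log2 CPM a prior count of 2. Replicates of a group differed by more than sampling noise (chi-square per degree of freedom 2.34 to 17.5). All columns of samples were matched by name.

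The members and lists were chosen with earlier results of these data known. The genes named are all members, the listed pathway genes that were DEGs with at least 1 drug, marker genes beside a result, and the 3 genes most like each of the 3 members with the widest range, and 1 of these like genes is not reported here. Alternatives were DESeq2 1.42.0, limma-voom (limma 3.58.1), RLE factors or library size, no filter or 10 counts in every sample, other sample sets, a replicate block and leaving out each sample. The fits were tested on simulated counts with changes well past the log2 threshold, so changes near it and genes with few counts were not covered.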

Additional observations from a re-analysis of the deposited data

How the results depend on the processing

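Of 801 member log2 fold changes under the alternatives, 757 kept their direction and their call as a DEG or not, 13 were no longer DEGs, 4 newly were and 27 reversed, and the cause of these changes was not tested unless stated. Against control, 14 of 220 values crossed the adjusted p of 0.05 under alternatives that kept all samples. The DEGs among the members with iohexol were 0 instead of 1 with library size only and with 10 counts in every sample, and 0 to 1 when samples were left out (0 without Control replicate 2 or 3). SLCO2A1 then stood at -0.94, -0.99, -0.996 and -0.994, and its adjusted p over all alternatives was 9.41e-23 to 0.0001. Between cisplatin and vancomycin, 3 instead of 5 members were DEGs with library size only and with 10 counts in every sample, where PTGIS has too few counts to be tested, and 4 to 5 when samples were left out. PTGER2 there was between -0.98 and -0.95 with DESeq2, RLE factors, 10 counts in every sample and the 2 groups alone, -0.67 with library size only, and -0.98 and -0.96 without Vancomycin replicate 1 and Cisplatin replicate 2. PTGES there was -0.84 and PTGER2 between iohexol and vancomycin -0.89 with library size only. Other pathway DEGs with iohexol numbered 5 instead of 3 without Iohexol replicate 3, with a range of 3 to 5. PTGIS between iohexol and cisplatin, with 0 to 4 counts, passed with DESeq2 and without a filter.

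Reversed values were of members that did not pass the test in that comparison, except PTGES3 between cisplatin and vancomycin. With library size only they were, against control, PTGES 0.024 with iohexol, and PTGES2 0.16 with cisplatin and -0.017 with vancomycin. Between iohexol and cisplatin they were PTGES2 -0.077 and PTGES3 -0.044, and between iohexol and vancomycin PTGS1 0.056 and PTGES2 0.10. Between cisplatin and vancomycin they were PTGS2 0.14, PTGES2 0.18, PTGES3 0.029 and HPGD 0.085. PTGES2 with iohexol was -0.023 without a filter and -0.0041 in the fit of all 4 groups. When samples were left out, values with iohexol ranged from -0.086 to 0.15 for PTGES2, from -0.034 to 1.06 for PTGS2 and from -0.12 to 0.057 for PTGES, and PTGES2 with vancomycin from -0.038 to 0.12. Between iohexol and cisplatin the ranges were -0.30 to 0.0074 for PTGS2, -0.027 to 0.19 for PTGES2 and -0.027 to 0.17 for PTGES3. Between iohexol and vancomycin they were -0.18 to 0.029 for PTGES2 and -0.64 to 0.031 for PTGS2, and between cisplatin and vancomycin -0.54 to 0.14 for PTGS2. The part of up-regulated genes among all DEGs went, from TMM to library size only, from 46.6% to 65.0% with cisplatin, from 65.0% to 54.1% between iohexol and cisplatin, from 47.3% to 64.1% between iohexol and vancomycin and from 43.0% to 64.8% between cisplatin and vancomycin.

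The replicate numbers did not pair the samples, since same-numbered samples of different groups deviated together with a mean r of -0.0209 over 18 pairs (-0.184 to 0.103), and in 13 of 36 matches of a sample with another group the best match had its own number. With the replicate block, the members called as DEGs numbered 1, 3 and 4 with iohexol, cisplatin and vancomycin and 3, 5 and 5 between the drugs, as without it, and 2 instead of 6 members had an adjusted p under 0.05 with iohexol. PTGS1 (edgeR adjusted p = 0.0983), PTGES3 (0.0807), PTGER2 (0.0583) and PTGER4 (0.0685) no longer passed, and PTGES3 passed with vancomycin (0.0363). Depth limits the values of PTGS2, PTGIS and PTGER3.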

Other observations

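The lipoxygenase and epoxygenase arms use arachidonic acid as well, for leukotrienes and epoxides. Of the 26 genes listed, 3 of 13 tested rose and 0 fell with iohexol, 5 of 12 rose and 3 fell with cisplatin, and 7 of 14 rose and 2 fell with vancomycin. Beside them stand 21.0%, 59.8% and 57.9% of all genes in either direction, so the numbers with each drug are near the share of all genes. The median log2 fold changes were 0.43, 0.09 and 0.70. ALOX5, which starts leukotriene synthesis, had 1.62 ± 0.174 CPM in the control group (SD, n = 3) and rose to 4.49 ± 0.309 CPM with iohexol (log2 fold change 1.48 ± 0.22) and to 6.98 ± 1.32 CPM with vancomycin (2.06 ± 0.24). It was at 0.683 ± 0.165 CPM with cisplatin, at 8 to 13 counts there, where it passed the filter only through the control samples. The leukotriene B4 receptor gene LTB4R rose with cisplatin from 11.0 ± 1.48 to 32.6 ± 1.91 CPM (1.57 ± 0.11). EPHX1, an epoxide hydrolase, rose 1.35 with iohexol and 1.11 with vancomycin on the log2 scale. LTB4R2 (1.25) was a DEG with cisplatin. ALOX5AP and CYP4F11 with vancomycin and ALOXE3 with cisplatin passed the filter only through the drug samples, with 1.48, 2.64 and 1.87 CPM against 0.631, 0.601 and 0.762 CPM in the control group. LTB4R2 shares 64.9% of its 31-base sequences with other genes, and its exons overlap LTB4R.

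Genes that respond to cyclic AMP, the second messenger of PTGER2 and PTGER4, were listed too, and many of them respond to other signals. Of 17 tested, 3 rose and 4 fell with iohexol, 10 rose and 5 fell with cisplatin, and 7 rose and 6 fell with vancomycin, beside 21.0%, 59.8% and 57.9% of all genes in either direction, with medians of 0.07, 0.61 and -0.07. FOSB rose 3.24 with cisplatin and 3.46 with vancomycin on the log2 scale, NR4A1 rose 2.34 and 2.58, CREM 1.16 and 1.49, and NR4A2 1.72 and 1.17. NR4A3 rose with cisplatin from 3.27 ± 0.683 to 26.3 ± 1.06 CPM (3.01 ± 0.14) and fell with vancomycin to 1.70 ± 0.537 CPM (-0.98 ± 0.30). RGS2 rose 1.27 with cisplatin. PDE10A, which degrades cyclic nucleotides, was -1.003 with iohexol and -1.63 with cisplatin, and PDE3B -1.73 with vancomycin. The iohexol value of PDE10A was -0.96 without Control replicate 1 and -0.93 without Iohexol replicate 1. PDE7B passed the filter with cisplatin only through the control samples, at 1.08 CPM against 0.402 CPM. AREG was -1.13 with iohexol and -1.68 with vancomycin, and PPARGC1A -1.32 with cisplatin and -1.04 with vancomycin (-0.87 without Vancomycin replicate 2). SIK1 was at 8.85, 36.3 and 10.1 CPM in the control samples and 5.33, 6.34 and 5.91 CPM with cisplatin. Its log2 fold change of -1.67 was -0.71 without Control replicate 2. Of its 31-base sequences, 90.1% occur in its copy SIK1B as well or in other genes.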
